A study of Homo sapiens with 6 samples.

Results

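The 10 genes described here, CCNE1, CCNE2, CCND1, CCND2, CDKN2A, CDKN2B, MTAP, RB1, CDK6 and CDKN1B, are the G1 cyclins and their partners together with the genes of the CDKN2A locus, and were chosen by their symbols among 17687 named genes on the array. Each of them had 1 probe. They were measured in RMG1, a cell line used as a model of clear cell carcinoma of the ovary, and in OVCAR3, which stands for high-grade serous carcinoma, so that each histotype is represented by 1 line. RMG1 cells were transfected with siControl or with 1 of 2 siRNAs against CPNE8, siCPNE8 #A and siCPNE8 #B, and OVCAR3 cells with siControl or with siBHLHE41 #A or siBHLHE41 #B. All cells carried a transfected siRNA, no source used here gives an untransfected culture, and there was 1 Clariom S array per siRNA, 6 in all. The time between transfection and RNA extraction was not given for the arrays in the sources used here, and the labels and the methods assign the DMEM and RPMI media to the lines in opposite ways.

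In the G1 phase, D-type cyclins bind CDK4 and CDK6, and E-type cyclins bind CDK2. Both kinds of kinase phosphorylate the retinoblastoma protein, which then releases E2F transcription factors that switch on the genes of DNA replication. The INK4 inhibitors encoded by CDKN2A and CDKN2B block CDK4 and CDK6, and p27, the product of CDKN1B, blocks cyclin E with CDK2. In ovarian carcinoma the pathway is known for gain of CCNE1 in part of the high-grade serous tumours and for strong staining of p16, a product of CDKN2A, in tumours of that histotype. MTAP lies beside CDKN2A and encodes an enzyme that recycles methionine.

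Values are log2 values as deposited. Background was set for each array at the level that 95% of its 612 negative controls did not exceed, and lay between 7.86 and 8.47. A gene not above it in any array of a line has only an upper limit there. Between 37.2% and 41.2% of the 21448 transcript probes were above it per array, and arrays of 1 line correlated with r from 0.99 to 0.993 against 0.92 to 0.928 between lines. Of the clear cell markers measured, 4 of 6 were higher in RMG1 and 0 in OVCAR3. Of the genes listed as serous markers, 4 of 6 were higher in OVCAR3 and 1, PAX8, in RMG1. PAX8 was above background in every array of both lines, with means of 15.42 in RMG1 and 14.08 in OVCAR3. NAPSA and ESR1, a marker of each list, were above background in no array. The 5 immune, 3 endothelial and 3 fibroblast markers were above background in no array. The targeted genes moved as labelled, since siCPNE8 #A and #B left 0.117 and 0.278 of the CPNE8 signal and siBHLHE41 #A and #B left 0.35 and 0.542 of the BHLHE41 signal.

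The sequence just before the gene start is shown for CCNE1 and CDKN2A, the cyclin gene and the inhibitor gene with the largest differences between the lines among the 10 genes. CCNE1 lies on chromosome 19 from 29811991 to 29824312 on the plus strand, and CDKN2A on chromosome 9 from 21967752 to 21995324 on the minus strand (RefSeq, GRCh38.p14). CDKN2A has a start for ARF and, inside the gene, a start for p16INK4a. The 250 bases before each start are given 5′ to 3′ on the strand of the gene, with the GC box, GGGCGG on either strand, in capitals; this is the core of the site bound by Sp1.
CCNE1, chr19:29811741-29811990: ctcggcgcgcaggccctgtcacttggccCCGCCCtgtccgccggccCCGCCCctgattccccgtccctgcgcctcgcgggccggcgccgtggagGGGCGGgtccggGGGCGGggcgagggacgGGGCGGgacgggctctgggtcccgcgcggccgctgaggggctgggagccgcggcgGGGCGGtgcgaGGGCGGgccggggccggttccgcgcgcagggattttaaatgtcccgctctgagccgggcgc
CDKN2A, ARF start, chr9:21995325-21995574: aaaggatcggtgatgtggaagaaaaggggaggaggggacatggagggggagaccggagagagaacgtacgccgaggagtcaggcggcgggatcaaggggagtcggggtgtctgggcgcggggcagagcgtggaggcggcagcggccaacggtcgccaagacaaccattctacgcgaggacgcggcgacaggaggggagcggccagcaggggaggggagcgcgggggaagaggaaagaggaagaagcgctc
CDKN2A, p16INK4a start, chr9:21974858-21975107: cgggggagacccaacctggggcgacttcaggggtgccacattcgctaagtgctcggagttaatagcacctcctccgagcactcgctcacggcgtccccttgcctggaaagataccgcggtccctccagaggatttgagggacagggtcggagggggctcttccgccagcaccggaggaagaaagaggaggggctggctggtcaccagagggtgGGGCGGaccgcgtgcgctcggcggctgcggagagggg
The window of CCNE1 held 7 GC boxes and 39 CpG dinucleotides. The ARF window of CDKN2A held 0 GC boxes and 24 CpG, and its p16INK4a window held 1 GC box and 20 CpG. Over the 35116 RefSeq windows of the same length, 42.6% held a GC box and the median count of CpG was 11. These letters describe the windows and say nothing about which factor was bound. The array probe of CDKN2A is annotated to transcripts of both starts, so its 1 value cannot separate p16INK4a from ARF.

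Most of these genes differed between the 2 lines. With limma's test of the 3 RMG1 arrays against the 3 OVCAR3 arrays, adjusted with Benjamini-Hochberg over all 21448 transcript probes, 3 of the 10 genes were higher in RMG1 (RB1, CCND1 and CCNE2) and 5 were higher in OVCAR3 (CDKN2A, MTAP, CCNE1, CDKN1B and CDKN2B). Of all transcript probes, 17.8% were higher in RMG1 and 19.2% in OVCAR3, and of the 10007 probes above background in at least 1 array the shares were 28.7% and 30.2%. CDKN2B, counted as higher in OVCAR3, and CCND2 are not among these 10007 probes. The median size of the measured difference was 1.58 on the log2 scale for the 10 genes, 0.40 for all transcript probes and 0.74 for the probes above background. The genes were chosen with earlier results of these data known. The gap to all probes is therefore not independent support. Of the 10 genes, 7 were above background in every array, CDKN2A in OVCAR3 alone, and CCND2 and CDKN2B in none. Whether the arrays stem from separate cultures is not stated, the 3 arrays of a line include its siRNA arrays, and p-values therefore measure the spread between these arrays. Each array holds RNA of a whole culture, so fewer expressing cells and less RNA per cell cannot be told apart.

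**Figure D1:**
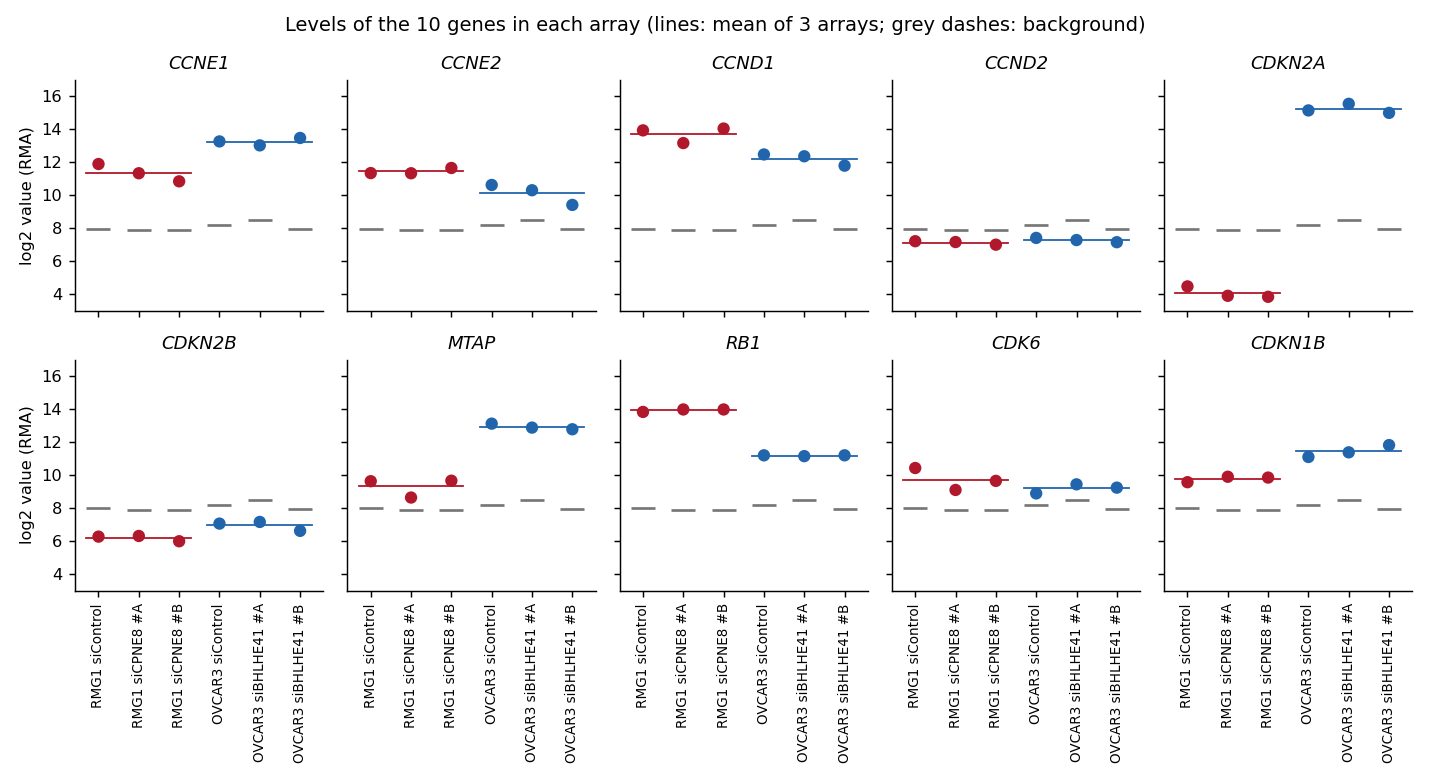
Log2 value of each of the 10 genes (panels) in the 6 arrays, RMG1 in red and OVCAR3 in blue, with the mean of 3 arrays as a coloured line and the background of each array as a grey dash. CDKN2A lies far below background in the RMG1 arrays and between 14.99 and 15.54 in the OVCAR3 arrays, and CCND2 and CDKN2B lie under the dash in all 6.

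Among the E-type cyclins, the 2 paralogs differed between the lines in opposite directions. CCNE1, which encodes cyclin E1, had a log2 value of 11.89 in the siControl array of RMG1, 11.33 in the siCPNE8 #A array and 10.84 in the #B array. In OVCAR3 the siControl array gave 13.26, siBHLHE41 #A 13.02 and siBHLHE41 #B 13.47. All OVCAR3 arrays were above all RMG1 arrays, and the RMG1 siControl array came closest to them. The RMG1 minus OVCAR3 difference was -1.89 ± 0.27 (SE, 3 arrays of each line), or 3.72-fold higher in OVCAR3 (limma adjusted p = 0.000484). Between the siControl arrays alone it was -1.36.

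CCNE2, which encodes cyclin E2, read 11.34, 11.33 and 11.65 in the siControl, #A and #B arrays of RMG1. The OVCAR3 values were 10.62 for siControl, 10.30 for siBHLHE41 #A and 9.41 for the #B array. The RMG1 arrays lay close together and above every OVCAR3 array, and the lowest value was that of siBHLHE41 #B. CCNE2 was 2.51-fold higher in RMG1, with a difference of 1.33 ± 0.29 (SE, limma adjusted p = 0.0061). The siControl arrays alone gave 0.72.

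Of the D-type cyclin genes CCND1 and CCND2, CCND1 was above background in every array and CCND2 in none. CCND1, whose product cyclin D1 couples growth signals to CDK4 and CDK6, read 13.93 in the siControl array of RMG1, 13.16 in its #A array and 14.04 in its #B array. It read 12.47, 12.36 and 11.79 in the siControl, #A and #B arrays of OVCAR3. The groups did not overlap, and RMG1 was 2.84-fold higher (difference 1.51 ± 0.28 SE, limma adjusted p = 0.00219). CCND2, the gene of cyclin D2, had values from 7.0 to 7.21 in RMG1 and from 7.15 to 7.41 in OVCAR3, below background throughout. No fold is given for it, and its groups overlapped (limma adjusted p = 0.51).

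CDK6, a catalytic partner of the D-type cyclins, was not called between the lines. Its RMG1 values were 10.43 for siControl, 9.10 for siCPNE8 #A and 9.65 for the #B array. Its OVCAR3 values were 8.89 for siControl, 9.44 for siBHLHE41 #A and 9.24 for the #B array. The RMG1 siControl array stood above all others, and the siRNA arrays of the 2 lines overlapped. The difference was 0.54 ± 0.32 (SE, limma adjusted p = 0.231). Between the siControl arrays it was 1.54, and without the siCPNE8 #A array it was 0.85 (limma adjusted p = 0.0491).

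RB1, which encodes the retinoblastoma protein, had the narrowest spread of the 10 genes in both lines. It read 13.83 with siControl and 13.98 with each siCPNE8 siRNA in RMG1. In OVCAR3 the siControl and siBHLHE41 #B arrays both gave 11.20 and the #A array gave 11.15. The lines stood far apart relative to this spread, and RB1 was 6.70-fold higher in RMG1 (difference 2.74 ± 0.15 SE, limma adjusted p = 1.75e-06).

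The inhibitor genes CDKN2A and CDKN1B were both higher in OVCAR3. CDKN2A read 4.47, 3.90 and 3.84 in the siControl, #A and #B arrays of RMG1, all below background. In the OVCAR3 arrays the values were 15.14 for siControl, 15.54 for siBHLHE41 #A and 14.99 for the #B array. CDKN2A was thus below background in every RMG1 array and strong in every OVCAR3 array. Set against the background of the RMG1 arrays, it was at least 158-fold higher in OVCAR3, or 7.31 on the log2 scale (limma adjusted p = 1.19e-08 for the measured difference of -11.15 ± 0.23 SE).

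CDKN2B, which encodes the INK4 inhibitor p15 and is a paralog and neighbour of CDKN2A, stayed below background in both lines. Its values ran from 5.99 to 6.31 in RMG1 and from 6.62 to 7.16 in OVCAR3. It passed the test between the lines (limma adjusted p = 0.014), but with all values below background no fold is given. The call was lost without the siBHLHE41 #A array (limma adjusted p = 0.0552) and without the siCPNE8 #B array (limma adjusted p = 0.055).

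In RMG1, MTAP read 9.63 in the siControl array, 8.64 in the siCPNE8 #A array and 9.66 in the #B array, above background in all 3 arrays. In OVCAR3 it read 13.12, 12.88 and 12.78. The lines did not overlap, and the siCPNE8 #A array was the lowest. MTAP was 12.3-fold higher in OVCAR3 (difference -3.62 ± 0.28 SE, limma adjusted p = 1.19e-05). MTAP was thus above background in RMG1, while CDKN2A was below it there. CDKN2B was below background in both lines.

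CDKN1B, the gene of p27, read 9.57 in the siControl array of RMG1, 9.90 in #A and 9.85 in #B. The OVCAR3 arrays gave 11.10 for siControl, 11.38 for #A and 11.82 for #B. Every OVCAR3 array was above every RMG1 array, by 3.15-fold in the mean (difference -1.66 ± 0.22 SE, limma adjusted p = 0.000302). In both lines the siControl array was the lowest of the 3.

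**Figure D2:**
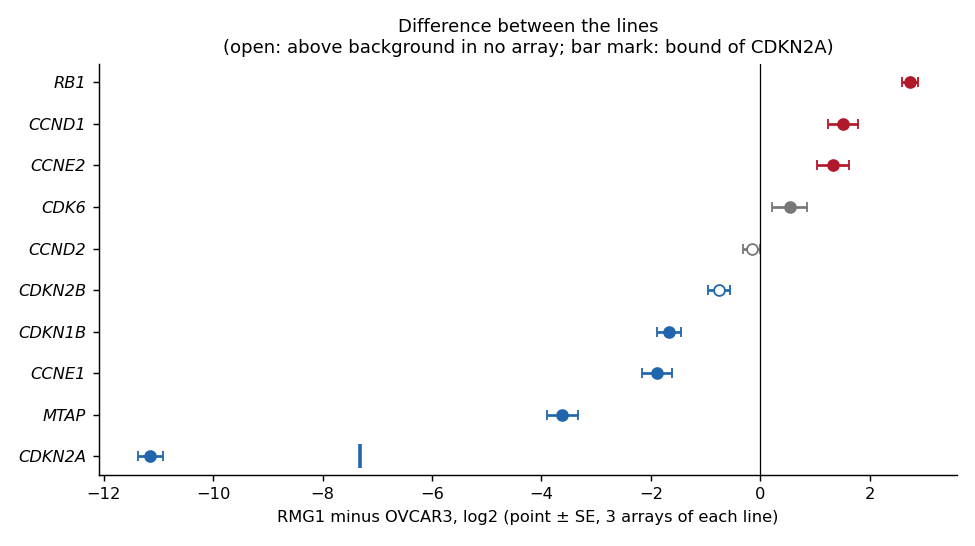
RMG1 minus OVCAR3 difference of each gene on the log2 scale with its SE (3 arrays of each line), red where higher in RMG1, blue where higher in OVCAR3 and grey where not called. CDKN2A lies at -11.15, with its bound of 7.31 drawn as a bar mark on the OVCAR3 side, and RB1 lies farthest to the RMG1 side at 2.74.

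CDKN2A, CDKN2B and MTAP are in the set as genes of 1 locus, while position was not used to choose the others. The measured genes within 1 Mb of each gene were examined in the same fit (positions from RefSeq, GRCh38.p14). Counts are of neighbours above background in at least 1 array, for which 28.7% of all such probes were higher in RMG1 and 30.2% in OVCAR3. Neighbours share a region, and they are not replicates of each other. Around CCNE1, 6 neighbours were measured and 4 were above background, and all 4 were higher in OVCAR3, as CCNE1 was, with a median difference of -2.08, or -1.82 with C19orf12, below background in RMG1, at its bound.

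POP4, which encodes a subunit of ribonuclease P, lies 206.4 kb from CCNE1 between gene midpoints. It read 10.87, 11.12 and 11.11 in RMG1 and 14.04, 13.95 and 13.99 in OVCAR3 (siControl, #A and #B), with a difference of -2.96 ± 0.16 (SE, limma adjusted p = 1.45e-06). URI1, a chaperone of the prefoldin family on the other side of CCNE1 at 152.0 kb, read 13.32, 12.91 and 13.21 in RMG1 and 15.22, 15.06 and 14.90 in OVCAR3. Its difference of -1.91 ± 0.18 was close in size to that of CCNE1 itself (limma adjusted p = 4.29e-05). C19orf12 was below background in RMG1 and was at least 3.32-fold higher in OVCAR3 (limma adjusted p = 6.21e-05). PLEKHF1 was the weakest of the 4, at -1.04 ± 0.36 (SE, limma adjusted p = 0.0479), with its highest value, 10.22, in the siBHLHE41 #B array. Its call was lost in 8 of 12 alternatives, and without that array the difference was -0.57 (limma adjusted p = 0.0613).

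Around CDKN2A, 21 neighbours were measured, but 4 were above background in any array. MTAP, HACD4 and FOCAD were higher in OVCAR3, and DMRTA1 was not called. MTAP is itself a gene of the set, chosen for this locus, and adds no separate evidence here. HACD4, which encodes an enzyme of very long chain fatty acid synthesis, read 9.08, 9.32 and 9.40 in RMG1 and 11.47, 11.85 and 11.34 in OVCAR3, a difference of -2.29 ± 0.19 (SE, limma adjusted p = 2.1e-05). FOCAD, which encodes focadhesin, differed by -0.72 ± 0.16 (SE, limma adjusted p = 0.00645). Both lie beyond MTAP, on its far side from CDKN2A. DMRTA1, on the opposite side at 469.7 kb, read 7.61, 8.17 and 8.01 in RMG1 and 7.72, 8.42 and 7.98 in OVCAR3, at the level of background in both lines (difference -0.11 ± 0.23 SE, limma adjusted p = 0.763). Both HACD4 and FOCAD were above background in all 3 RMG1 arrays.

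The neighbours of RB1, CDK6 and CCNE2 are given because of their counts, chosen after their values were seen. Around RB1, 6 of the 7 neighbours above background were higher in RMG1 and 0 in OVCAR3, with a median difference of 2.21, or 1.76 with the 2 genes below background in 1 line set at their bounds. LPAR6, the nearest measured gene at 24.3 kb, and CYSLTR2 at 289.8 kb were above background in no array. The 4 nearest neighbours above background are given next, beside the 2.74 of RB1. ITM2B, the gene of an integral membrane protein, differed by 2.86 ± 0.19 (SE, limma adjusted p = 5.33e-06), and MED4, a subunit of the Mediator complex, by 2.33 ± 0.19 (SE, limma adjusted p = 1.82e-05). SUCLA2, a subunit of succinate-CoA ligase, differed by 2.21 ± 0.17 (SE, limma adjusted p = 1.2e-05), and RCBTB2, below background in OVCAR3, was at least 3.39-fold higher in RMG1 (limma adjusted p = 5.57e-06). FNDC3A at 699.7 kb was not called, with 0.41 ± 0.20 (SE, limma adjusted p = 0.148).

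Around CCNE2 the neighbours did not follow the gene, and CDK6 had no called difference to follow. Of the 9 neighbours of CDK6 above background, 7 were higher in OVCAR3 and 0 in RMG1, while CDK6 itself, at 0.54, was not called. Their median measured difference was -1.76, but 4 of them were below background in 1 line, and with these at their bounds, or at 0 where no bound could be given, the median was -0.95. Of the 8 neighbours of CCNE2 above background, 7 were higher in OVCAR3 with a median of -1.05, the same with TP53INP1 at its bound, while CCNE2 was higher in RMG1 by 1.33. The arrays measure RNA and give no count of gene copies. The neighbours of MTAP and CDKN2B are largely those of CDKN2A. CCND1, CCND2 and CDKN1B had neighbours in both directions. Of 7 around CCND1, 1 was higher in RMG1 and 1 in OVCAR3. The counts were 2 and 1 of 6 around CCND2, and 4 and 4 of 11 around CDKN1B.

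**Figure D3:**
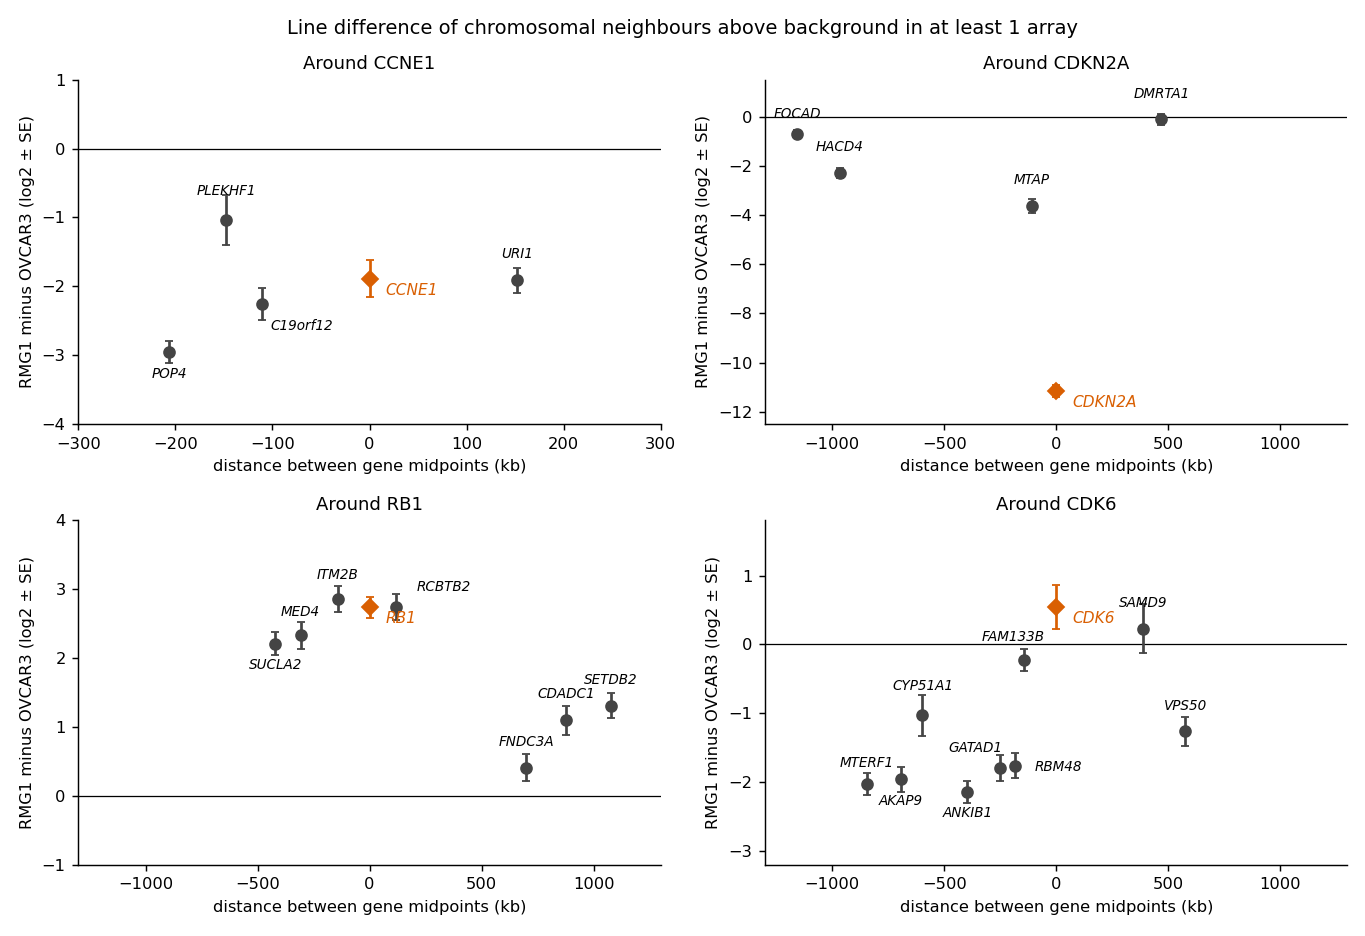
RMG1 minus OVCAR3 difference (log2, with SE over 3 arrays of each line) of the chromosomal neighbours above background in at least 1 array against the distance between gene midpoints in kb, around CCNE1, CDKN2A, RB1 and CDK6 (orange diamonds), with a different scale in each panel. The neighbours of CCNE1 lie below 0 and those of RB1 above 0, as the gene itself does. Of the neighbours of CDK6, 8 of 9 lie below 0, and CDK6, drawn above 0, was not called. Points of genes below background in 1 line, such as C19orf12, show the measured difference and not the bound.

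Each knockdown was compared with the siControl array of its own line by the ratio the study used, over 1.5 or under 0.66 with both siRNAs. In RMG1, 0 of the 10 genes were higher with both siCPNE8 siRNAs, against 2.56% of all transcript probes, and 1, CDK6, was lower, against 2.69%. CDK6 fell to 0.40 of the siControl signal with siCPNE8 #A and to 0.583 with siCPNE8 #B, with the mean of the log2 ratios at -1.05 ± 0.38 (SD, n = 2). CCNE1 came next, at 0.675 and 0.482 with a mean log2 ratio of -0.81 ± 0.34, and it missed the limit with siCPNE8 #A by a narrow margin. Both ratios of a gene share 1 control array, and for CDK6 and CCNE1 that array was the highest of RMG1. In limma's fit of 4 groups with 2 residual degrees of freedom, no probe on the array passed the adjusted threshold for siCPNE8 (0 calls, with 570 probes higher and 611 lower at an unadjusted p under 0.05). CDK6 had an adjusted p of 0.865 and CCNE1 of 0.894 in that limma fit.

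Other genes in RMG1 passed the lower limit with 1 siRNA and not with the other. CCND1 was at 0.589 of siControl with #A and at 1.08 with #B. MTAP was at 0.505 with #A and at 1.02 with #B. For each of these genes the 2 siRNAs against the same target thus gave values on both sides of the control. RB1 and CDKN1B lay above siControl with both, RB1 at 1.11 with each siRNA and CDKN1B at 1.25 and 1.21, neither past 1.5. CCNE2 was at 0.992 and 1.24. CDKN2A was below background in these arrays, and its ratios are not read.

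In OVCAR3, 0 of the 10 genes were higher with both siBHLHE41 siRNAs, against 3.09% of all transcript probes, and 0 were lower, against 2.13%. With limma there were 0 calls over the whole array, with 634 probes higher and 465 lower at an unadjusted p under 0.05, none of them among the 10 genes. CDK6 was the gene nearest to the limit with both siRNAs, at 1.47 and 1.28 of siControl, with the mean of the log2 ratios at 0.45 ± 0.14 (SD, n = 2). CDKN1B followed at 1.21 and 1.65. The cyclins CCNE2 and CCND1 were past the lower limit with siBHLHE41 #B alone, CCNE2 at 0.431 and CCND1 at 0.623, and with #A they stood at 0.796 and 0.925. CCNE1 lay on both sides of siControl, at 0.848 and 1.16. RB1 was at 0.96 and 1.0, CDKN2A at 1.32 and 0.903 and MTAP at 0.846 and 0.788.

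**Figure D4:**
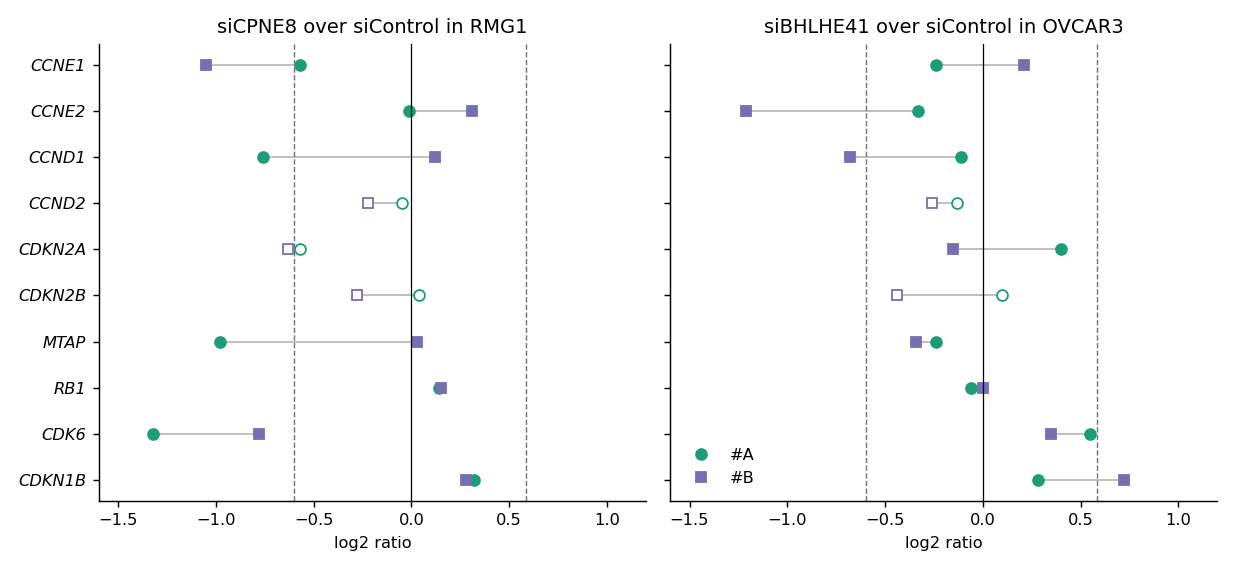
Log2 ratio of each gene to the siControl array of its line, with siRNA #A as a circle and #B as a square, siCPNE8 in RMG1 at left and siBHLHE41 in OVCAR3 at right. Dashed lines mark ratios of 0.66 and 1.5, and open symbols mark genes above background in no array of that line. CDK6 in RMG1 is the filled pair with both symbols past a line.

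The other genes of the G1/S network were read in the same way from a list of 46 genes, of which 43 were measured and 37 were above background in at least 1 array. In the limma fit, 18 of the 43 were higher in RMG1, 14 were higher in OVCAR3 and 11 were not called. The shares of all transcript probes were 17.8% and 19.2%, and those of the probes above background in at least 1 array 28.7% and 30.2%. The counts include E2F2 and CDT1 as higher in RMG1 and E2F1 as higher in OVCAR3, all above background in no array. For the 43 genes the median size of the measured difference was 0.91 on the log2 scale. It was 0.4 for all transcript probes and 0.74 for those above background. This list was also chosen with earlier results of these data known, so the gap to all probes is not independent support. CDKN1A, which encodes the inhibitor p21, read 10.91, 10.33 and 10.94 in RMG1 and 4.89, 5.22 and 6.70 in OVCAR3, where it was not above background. It was at least 5.73-fold higher in RMG1 (limma adjusted p = 1.88e-05). MDM2 was 4.53-fold higher in RMG1 with a difference of 2.18 ± 0.16 (SE, limma adjusted p = 7.63e-06). The replication licensing gene CDC6 was 7.75-fold higher in RMG1 (2.95 ± 0.16 SE) and the transcription factor gene MYC 5.0-fold (2.32 ± 0.35 SE).

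On the OVCAR3 side the largest differences were those of CCNA1, E2F1, TFDP2 and E2F4. CCNA1, the gene of cyclin A1, was above background in 2 OVCAR3 arrays and in no RMG1 array, and was at least 1.70-fold higher in OVCAR3 (limma adjusted p = 5.36e-05). E2F1, an activating E2F factor held by the retinoblastoma protein, passed the test but was above background in no array. TFDP2, a dimer partner of E2F, was 2.72-fold higher (-1.45 ± 0.20 SE) and E2F4, a repressive E2F, 2.36-fold (-1.24 ± 0.19 SE). Other cyclin and kinase genes, picked after their values were seen, also lay on both sides. CDK4 was 1.88-fold higher in OVCAR3 (limma adjusted p = 0.00171), while CDK2 was 2.25-fold (limma adjusted p = 0.00127) and CCND3 2.10-fold higher in RMG1 (limma adjusted p = 0.00111).

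With siCPNE8, 0 genes of the list were higher with both siRNAs, against 2.56% of all transcript probes, and 2 were lower, against 2.69%. The 2 genes were E2F5 at 0.514 and 0.627 of siControl and MYC at 0.333 and 0.532. With siBHLHE41, 0 were higher with both, against 3.09% of all transcript probes, and 1 was lower, against 2.13%. That gene was CCNA1 at 0.351 and 0.621, not above background with siBHLHE41 #A. CDKN1A was at 3.50 of siControl with siBHLHE41 #B and at 1.26 with #A, all below background.

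**Figure D5:**
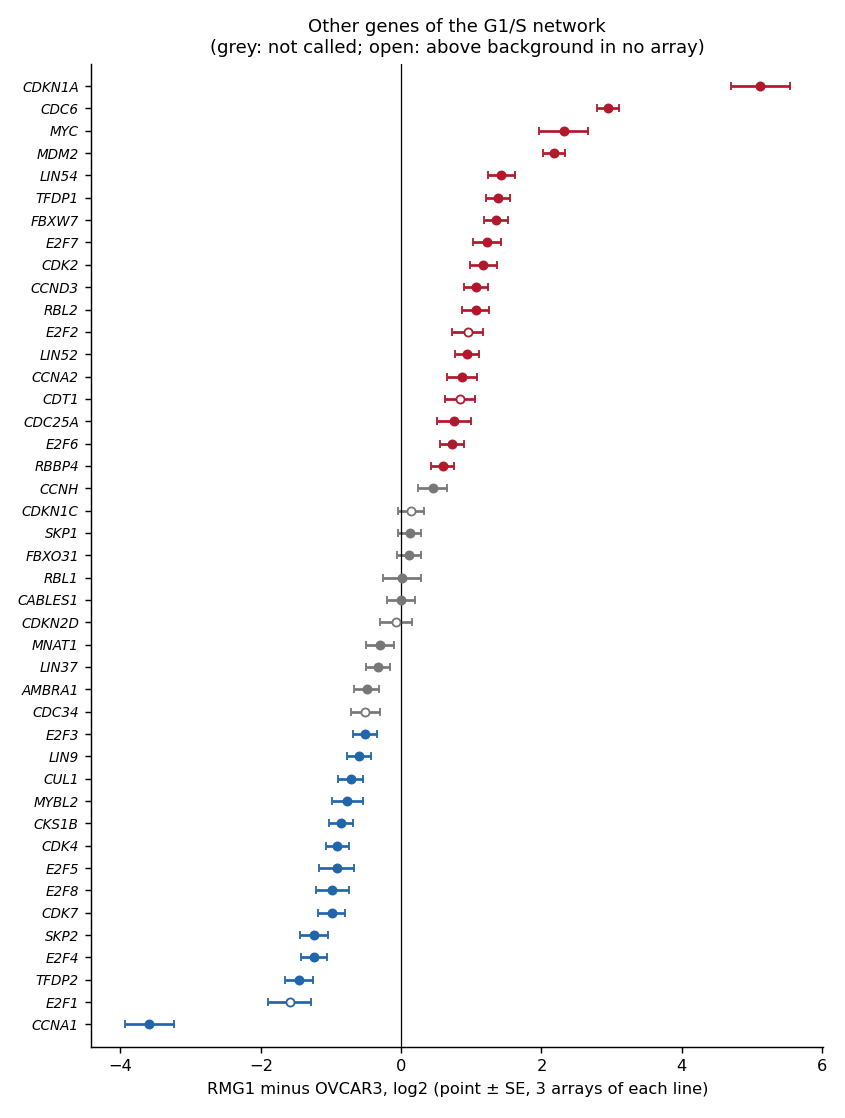
RMG1 minus OVCAR3 difference on the log2 scale with its SE (3 arrays of each line) for the 43 other genes of the G1/S network, red where higher in RMG1, blue where higher in OVCAR3 and grey where not called. Open symbols mark genes above background in no array. CDKN1A lies at 5.12 and CCNA1 at -3.59.

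Genes with the most similar profile were sought among 8740 named genes above background in at least 1 array, by the root mean square distance between the 6 values after each gene was centred on its own mean. This likeness uses the same 6 arrays and mainly follows the split of the lines. For CDKN2A the 3 genes found were UCHL1, HSPB1 and GSTP1. UCHL1 had 4.96, 4.2 and 4.6 in RMG1 and 15.92, 15.93 and 15.77 in OVCAR3. All 3, like CDKN2A, were below background in every RMG1 array and strong in every OVCAR3 array, so their distances rest on values that are only upper limits and are given no order. For CCNE1 the nearest were PANX1 (0.14 on the log2 scale), RBM48 (0.21, below background in RMG1) and TAF6 (0.23). For RB1 they were CDK17 (0.09), G6PC3 (0.10) and INTS2 (0.11). For CCND1 they were ETV4 (0.06, below background in OVCAR3 and in the siCPNE8 #A array), CHAMP1 (0.08) and PI4K2B (0.17). The distances of RBM48 and ETV4 also rest in part on values that are only upper limits, so their places carry no order.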

How the data were processed

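RNA was prepared with ISOGEN, and 6 Affymetrix Clariom S arrays were hybridised, 1 per siRNA. The authors deposited log2 values for 24351 probes, credited in the submitters' processing notes to RMA in Affymetrix Expression Console, with the version not given in the sources used here. In RMA, background is corrected, arrays are quantile normalized and the features of a transcript are summarised. The highest value of an array was between 17.73 and 18.35, above 16, the log2 of a 16-bit scale. A rescaling that no source describes may therefore have been applied, and ratios may be stretched or shrunk by it.

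Gene symbols came from the array annotation (17709 of 21448 transcript probes had 1 symbol, 3739 are unnamed here) and gene positions and promoter sequences from RefSeq tables of GRCh38.p14. The lines were compared with limma 3.58.1 (lmFit and eBayes, R 4.3.3), 3 arrays against 3, with 4 residual degrees of freedom, over the 21448 transcript probes and an adjusted p threshold of 0.05 (Benjamini-Hochberg). The fit was tested on simulated data. The knockdowns were compared by the ratio to siControl with both siRNAs, and with limma in 4 groups. A bound sets the mean of the brighter line against the mean, over the arrays of the dimmer line, of the higher of background and the measured value.

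The genes and lists were chosen with earlier results of these data known. The genes named are the 10 genes, CPNE8 and BHLHE41, the 4 genes of the G1/S list with the largest differences in each direction, the neighbours of CCNE1 and CDKN2A above background and the 3 genes most alike in profile. Other names were picked after their values were seen. Alternatives were another fit, quantile normalization, centring, dim probes left out, a variance trend, control probes included, other ratio limits and each array left out. The neighbour counts, the other genes and the bound were recomputed after the data had been seen.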

Additional observations from a re-analysis of the deposited data

How the results depend on the processing

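The line differences of RB1, CCND1, CCNE2, CDKN2A, MTAP, CCNE1 and CDKN1B kept their direction and their side of the threshold in all 12 alternatives with a test. With each array left out in turn, the count of genes higher in RMG1 ran from 3 to 4 and that of genes higher in OVCAR3 from 4 to 5. The bound of CDKN2A ran from 7.15 to 7.42 on the log2 scale. Counts of the G1/S list ran from 16 to 17 in RMG1 and from 11 to 13 in OVCAR3.

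The knockdown counts depended more on the rule. Genes lower with both siCPNE8 siRNAs numbered 0 with a ratio over 2 or under 0.5 and 0 with limma's adjusted p, in place of 1. With 1 siRNA left out the count was 3 either way, CCND1, MTAP and CDK6 with #A alone and CCNE1, CDK6 and CDKN2A with #B alone, where the ratio of CDKN2A counts by the rule but is not read, since all its RMG1 values were below background. For siBHLHE41 the counts with 1 siRNA left out ran from 0 to 1 higher and from 0 to 2 lower, with CDKN1B higher and CCNE2 and CCND1 lower with #B alone. The rule with 1 siRNA is looser. The shares of all transcript probes given above are for both siRNAs and cannot be set beside these counts. The cause of the gap between siRNAs was not tested. The difference of DMRTA1, not called, changed sign without the siBHLHE41 #A array (0.08) and without the RMG1 siControl array (0.05), and ran from -0.27 to 0.08 over the arrays left out. With 1 array per siRNA and 2 residual degrees of freedom in the fit of 4 groups, small knockdown effects could not be resolved, and values near background have no reliable order.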
